A study of Mus musculus with 6 samples.

Results

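The 10 RNAs described here are broadly expressed noncoding transcripts. Malat1 and Neat1 lie in nuclear bodies, and Rmrp is the RNA of the enzyme RNase MRP. The other 7 are host transcripts of small nucleolar RNAs (Gas5, Snhg1, Snhg3, Snhg5, Snhg6, Snhg8 and Snhg12). The 10 RNAs were taken by gene symbol from the 24214 gene rows of the dataset. All 10 passed the filter on low counts that left 13892 genes to test. The question was whether they differed between 393P_ZEB1 and 393P_vector cells. 393P is an epithelial lung adenocarcinoma cell line from a C57BL/6 mouse. The 3 samples of 393P_ZEB1 had been transfected with an expression vector for ZEB1, a zinc finger transcription factor that represses epithelial genes, and the 3 samples of 393P_vector with the vector alone. Both were grown in the same medium. The methods describe stable transfectants that were selected with puromycin or G418, and the sources used here do not say whether the 3 samples of a group came from separate transfections, so p-values measure the spread between these samples, which may be technical.

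Malat1 and Neat1 stay in the nucleus, where Malat1 collects in splicing speckles and the long form of Neat1 forms the core of paraspeckles. Host genes carry small nucleolar RNAs (snoRNAs) in their introns. Splicing frees the intron, the snoRNA is trimmed from it, and it then guides 2′-O-methylation (box C/D) or pseudouridylation (box H/ACA) of other RNAs. What is left of the host is a short spliced RNA, often taken down by nonsense-mediated decay, and many hosts begin, like the mRNAs of ribosomal proteins, with a run of pyrimidines known as a 5′ terminal oligopyrimidine (5′ TOP) tract, which ties their translation and decay to growth signals. RNase MRP cuts the precursor of ribosomal RNA.

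The 393P_ZEB1 libraries held 54442450 to 61251074 counts and the 393P_vector libraries 57844355, 59735316 and, in replicate 3, 79158012. Levels are given as CPM, the counts scaled to a TMM-normalized library, and 3 counts, the smallest number treated as detected, stood for 0.0361 to 0.0561 CPM. 393P_vector replicate 3 stood apart from the other samples of its group. Relative to the mean of replicates 1 and 2, its summed CPM was 0.49 on 150 rows named as snoRNAs (Snora, Snord or Scarna). It was 0.36 on 6 other rows listed as short structured RNAs. The row of the ribosomal RNA precursor, Rn45s, stood at 1.44 and 84 ribosomal protein rows at 1.22. The sums do not hold for each row, and single rows weigh heavily in them. Rpph1 held 3031.3 of the 3249.3 CPM on short structured RNAs in replicate 3. Snord22 held 2192.9 of the 17168.7 CPM on the snoRNA rows in replicate 3. In replicates 1 and 2 it held 12634.3 of 36097.9 CPM and 12633.5 of 33908.4 CPM. Among the short structured RNAs, Rpph1 was at 0.346 and Vaultrc5 at 0.376, but Rnu73b at 1.01, Rnu12 at 1.44 and Terc at 3.37. The snoRNA rows inside the members ran from 0.0987 for Snora61 to 1.4 for Snord47. The fold changes of the 10 RNAs are therefore given with and without this sample, and the part of RNA composition in the results was not tested. Zeb1, the introduced gene, had 21.2 to 22.0 CPM in 393P_vector and 48.9 to 54.9 CPM in 393P_ZEB1. The summed CPM of 8 epithelial markers was 5378.8 to 6216.4 in 393P_vector and 2748.0 to 3044.4 in 393P_ZEB1. All 4 lung lineage markers were under 1 CPM in every sample, and the summed fibroblast, leukocyte and endothelial markers reached at most 4.41 CPM. The lines also differed beyond ZEB1, since the 132 rows of chromosome Y held 5929 to 10837 counts in 393P_vector and 73 to 82 in 393P_ZEB1, and this difference cannot be told apart from an effect of ZEB1.

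Promoters of 7 of the 10 genes were found in RefSeq (GRCm38.p6), each covering 250 bases before and 50 bases after the transcription start. The 40 bases around the start, 10 before it and 30 from it on, are shown because 5′ TOP tracts lie there. Capitals mark the longest run of at least 5 C or T that reached past the start and began within its first 10 bases.
Gas5 (chr1:161035156-161035195, plus strand): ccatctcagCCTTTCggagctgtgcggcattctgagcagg
Snhg12 (chr4:132308668-132308707, plus strand): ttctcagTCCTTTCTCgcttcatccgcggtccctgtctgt
Snhg8 (chr3:123508307-123508346, minus strand): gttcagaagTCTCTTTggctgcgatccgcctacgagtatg
Snhg1 (chr19:8723477-8723516, plus strand): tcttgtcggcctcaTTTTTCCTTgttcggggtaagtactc
Snhg5 (chr9:88522868-88522907, minus strand): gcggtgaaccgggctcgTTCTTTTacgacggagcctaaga
Snhg3 (chr4:132353657-132353696, minus strand): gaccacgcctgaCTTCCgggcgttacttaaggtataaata
Malat1 (chr19:5802643-5802682, minus strand): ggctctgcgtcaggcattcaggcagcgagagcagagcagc

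The 6 hosts had such a run at these starts and Malat1 had none, nor did a second promoter listed for Gas5, which begins 565 bases before the deposited row. The run lay across the start in Gas5 (6 bases), Snhg8 (7 bases) and Snhg12 (9 bases) and began a few bases further in for Snhg1 (9 bases), Snhg5 (7 bases) and Snhg3 (5 bases). Runs are common, since 28.0% of all 32851 promoters held one of at least 5 bases, 11.7% one of at least 7 and 5.64% one of at least 9. The E-box CACCTG, searched on both strands (CACCTG or CAGGTG) because zinc finger factors of the ZEB family bind it, was present in 20.2% of all promoters. Among the members it was found once in Snhg12 and once in the second promoter of Gas5, and not in the promoters of Malat1, Snhg1, Snhg3, Snhg5 and Snhg8. Snhg5 is the member that differed between the groups, and its promoter reads as follows, with the same run in capitals.
Snhg5 promoter (chr9:88522848-88523147, minus strand): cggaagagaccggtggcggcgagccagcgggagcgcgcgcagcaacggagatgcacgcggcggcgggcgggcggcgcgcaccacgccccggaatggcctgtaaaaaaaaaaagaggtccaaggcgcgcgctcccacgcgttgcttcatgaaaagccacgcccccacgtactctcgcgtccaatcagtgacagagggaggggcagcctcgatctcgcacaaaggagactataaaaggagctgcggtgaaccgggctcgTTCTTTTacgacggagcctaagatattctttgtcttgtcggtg

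Levels can be compared between genes only per length, for which the deposited RPKM, the read count scaled by exon length and library size, was used. In 393P_vector the order of mean RPKM (n = 3) was Rmrp at 12083.0 ± 3067.0 (SD), Gas5 at 1765.4 ± 191.9, Malat1 at 438.1 ± 22.7, Snhg8 at 168.7 ± 46.0, Snhg1 at 125.9 ± 11.8, Snhg6 at 30.4 ± 31.3, Snhg5 at 24.6 ± 6.11, Snhg12 at 18.3 ± 1.17, Neat1 at 15.0 ± 2.54 and Snhg3 at 8.04 ± 6.07. The ranges of neighbours in this order overlapped for Snhg8 and Snhg1, for Snhg6 and Snhg5, for Snhg12 and Neat1, and for Neat1 and Snhg3, and were apart for the other neighbours. The exon of Snhg8 holds the snoRNA Snora24, whose count equalled 86.3% to 93.9% of the Snhg8 count. The place of Snhg8 in this order may therefore rest on Snora24. The counted exons of Gas5 hold 6 snoRNAs, and the count of 1 of them, Mir5117, equalled 19.1% to 23.4% of the Gas5 count. The level of Gas5, per length and in CPM, may therefore rest in part on snoRNA reads. The plot of RPKM by sample shows these levels per length, which are not shares of reads. In reads, a few of the 10 carried most. By mean CPM, Gas5 ranked 8, Rmrp 10 and Malat1 14 among the genes tested, and these 3 RNAs held between 96.9% and 97.9% of the reads on all members in each sample. The 10 members took 1.15%, 1.04% and 1.14% of all counts in 393P_vector and 1.21%, 1.05% and 1.02% in 393P_ZEB1, each in the order of the replicate number. The groups overlapped, and the difference of -0.0164 percentage points was within the spread between replicates (two-sided exact permutation test, p = 0.9, smallest possible p = 0.1).

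**Figure D1:**
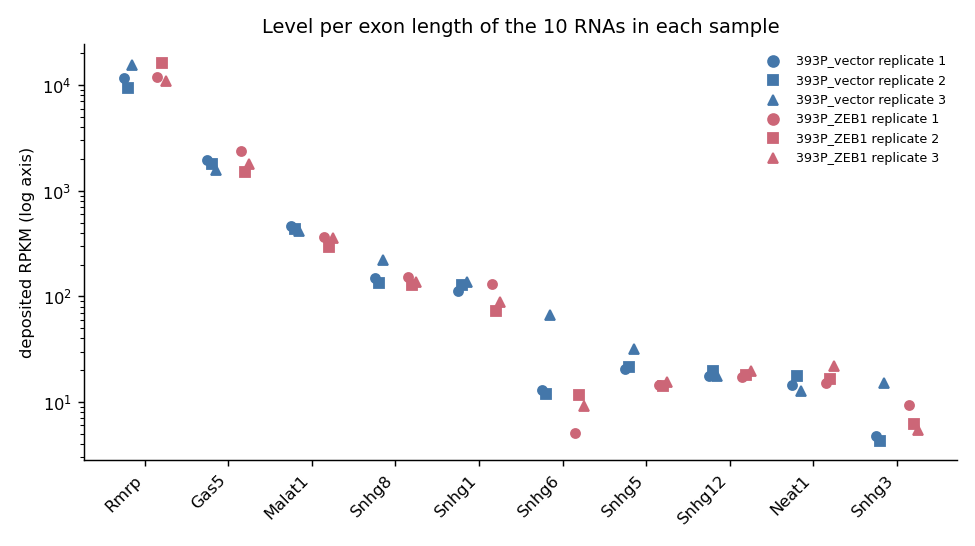
Deposited RPKM (log axis) of the 10 RNAs in the 3 samples of 393P_vector (blue) and 393P_ZEB1 (red), 1 point per sample, ordered by the mean in 393P_vector. Levels span from 4.27 for Snhg3 to 16240.76 for Rmrp. 393P_vector replicate 3 (blue triangle) lies above the other samples for Snhg8, Snhg1, Snhg6, Snhg5 and Snhg3.

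Of the 10 RNAs, 1 passed the test between the groups, Snhg5, which was lower in 393P_ZEB1, and none was higher (edgeR quasi-likelihood test, Benjamini-Hochberg adjusted p under 0.05). Over all genes tested 37.6% passed, and 19.3% passed as lower. At an unadjusted p under 0.05 there were 3 members, Malat1, Snhg5 and Snhg6, against 46.7% of all genes, and the samples of the groups did not overlap for the same 3 members, against 52.8% of all genes. All 3 were lower in 393P_ZEB1. The median log2 fold change of the members was -0.22 and that of all genes tested -0.02. The 95% interval of the log2 fold change spanned 0 for 7 of the 10.

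Without 393P_vector replicate 3 the members past the threshold were Malat1 and Snhg5, both lower, against 53.0% of the 14106 genes then tested, and the median of the members moved to -0.05. With limma voom, which gives each sample a weight, they were Malat1, Snhg1 and Snhg5, all lower, against 58.1% of all genes. In each of these counts the share of members was below that of all genes.

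**Figure D2:**
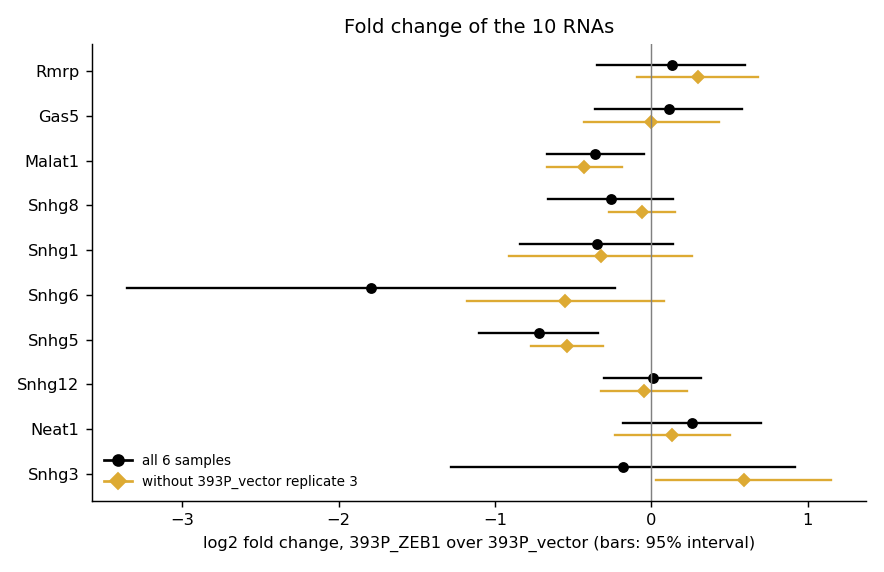
Log2 fold change of the 10 RNAs, 393P_ZEB1 over 393P_vector, from edgeR, with 95% intervals as bars, for all 6 samples (black circles) and without 393P_vector replicate 3 (yellow diamonds). Both intervals lie below 0 for Snhg5 and Malat1, and the estimates of Snhg6 (-1.79 and -0.55) and Snhg3 (-0.18 and 0.59) move most between the fits.

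Snhg5 is the host of the C/D box snoRNAs Snord50a and Snord50b, which GENCODE places in its introns and which have no rows of their own here. Its row lies on chr9:88521053-88522897 (GRCm38, minus strand) with 5 exons, all of which had more than 10 reads in every sample. It had 20.9, 21.9 and 30.0 CPM in 393P_vector and 14.8, 13.9 and 15.5 CPM in 393P_ZEB1. Every 393P_ZEB1 sample was below every 393P_vector sample, and 393P_vector replicate 3 was the highest of the 6. Snhg5 had a log2 fold change of -0.72 (SE 0.16, 95% interval -1.10 to -0.34, adjusted p = 0.0111 from edgeR), a fold of 0.606. Without 393P_vector replicate 3 it was -0.54 (SE 0.10, adjusted p = 0.00136), and without 393P_ZEB1 replicate 2 it was -0.68 and missed the threshold (adjusted p = 0.0557). Genes of chromosome 9 had a median log2 fold change of -0.14.

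Malat1 was lower in 393P_ZEB1 by a smaller amount that did not pass the test. Its single-exon row, chr19:5795690-5802671 (minus strand), had 3260.7, 3082.4 and 2744.6 CPM in 393P_vector and 2571.2, 2030.6 and 2467.3 CPM in 393P_ZEB1. The groups did not overlap. Malat1 had a log2 fold change of -0.36 (SE 0.13, 95% interval -0.67 to -0.05, adjusted p = 0.0687 from edgeR) with all samples, and -0.43 (SE 0.11, adjusted p = 0.00761) without 393P_vector replicate 3, which was the lowest of its group. Malat1 thus crossed the threshold by the choice of samples, and also by upper-quartile scaling (adjusted p = 0.0496 from edgeR).

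Neat1 had values of the other sign. Its row, chr19:5842302-5845478 (minus strand), is 3176 bases long and is the short form, so reads on the rest of the long form that assembles paraspeckles are not in it. Neat1 had 46.3, 57.0 and 38.6 CPM in 393P_vector and 48.7, 51.5 and 69.5 CPM in 393P_ZEB1, with overlapping groups. The log2 fold change was 0.26 (SE 0.19, 95% interval -0.18 to 0.70, adjusted p = 0.319 from edgeR) and 0.13 without 393P_vector replicate 3 (adjusted p = 0.52).

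Within a library, the ratio of Malat1 to Neat1 does not depend on its scaling. The ratio of counts was 70.5, 54.1 and 71.1 in 393P_vector and 52.8, 39.4 and 35.5 in 393P_ZEB1. Each 393P_ZEB1 sample was below each 393P_vector sample, with 52.8 and 54.1 as the nearest values. The mean log2 ratio was 6.02 ± 0.224 (SD, n = 3) and 5.39 ± 0.297, a difference of -0.626 (two-sided exact permutation test, p = 0.1, the smallest possible with 3 samples against 3). The difference without 393P_vector replicate 3 was -0.558 (exact permutation p = 0.2). Per length, Malat1 exceeded Neat1 by 24.6 to 32.4 times in 393P_vector and by 16.1 to 24.0 times in 393P_ZEB1.

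Among proteins of the same nuclear bodies, 1 of 15 paraspeckle proteins was lower and none higher, a share called of 6.67% against 37.6% of all genes. Without 393P_vector replicate 3, 4 were higher and 2 lower, against 53.0% of all genes. The protein lower with all samples was Rbm14, needed for paraspeckle assembly, at a log2 fold change of -0.40 (SE 0.12, adjusted p = 0.0377 from edgeR). Of the others named by level, the core protein Sfpq had 0.28 (adjusted p = 0.0671), Smarca4 -0.10, Tardbp -0.22 and Hnrnpm -0.11. Of 14 genes listed for nuclear speckles, not all of them speckle proteins, 7.14% were called. Srrm2, the scaffold of speckles, was lower at -0.63 (SE 0.12, adjusted p = 0.00448) and none was higher. Its partner Son had 0.30 (adjusted p = 0.055), and the splicing factors Srsf1, Srsf6 and Srsf2 had 0.01, 0.16 and -0.39. The median log2 fold change was 0.04 for each of the 2 lists.

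Snhg6 had the lowest fold change of the 10, and 1 sample carried most of it. Snhg6, host of Snord87, on chr1:9942025-9944118 (minus strand), had 5.26, 4.81 and 25.4 CPM in 393P_vector and 2.06, 4.59 and 3.64 CPM in 393P_ZEB1. 393P_vector replicate 3 was 5.04 times the mean of the other 2 samples of its group, and the nearest samples of the groups were at 4.81 and 4.59 CPM. Snhg6 had a log2 fold change of -1.79 (SE 0.67, 95% interval -3.35 to -0.23, adjusted p = 0.071 from edgeR) with it and -0.55 (SE 0.28, adjusted p = 0.125) without it. Leaving out 393P_vector replicate 1 or 2 instead took it past the threshold at -2.14 (adjusted p = 0.0396) and -2.16 (adjusted p = 0.0317). Part of the gene Mcmdc2 lies over 61 exonic bases on the opposite strand, and the use of strand in counting is not given in the sources used here.

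Snhg3 was the least counted, and its direction turned with the same sample. Snhg3, host of the H/ACA snoRNAs Snora73a and Snora73b, on chr4:132351933-132353686 (minus strand), had 2.12, 1.87 and 6.18 CPM in 393P_vector and 4.07, 2.63 and 2.33 CPM in 393P_ZEB1. The highest value was again that of 393P_vector replicate 3, at 3.10 times the mean of the other 2. Snhg3 had a log2 fold change of -0.18 (SE 0.47, adjusted p = 0.789 from edgeR) with it and 0.59 (SE 0.25, adjusted p = 0.0716) without it. Its 3 exons rest on 110 to 513 reads, and 356 of its exonic bases lie within the span of Rcc1 on the same strand, so its value is uncertain.

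Snhg1 and Snhg12 did not pass the test. Snhg1, with 8 annotated snoRNAs in its introns on chr19:8723487-8726326 (plus strand), had 53.6, 59.7 and 60.4 CPM in 393P_vector and 61.1, 33.6 and 41.3 CPM in 393P_ZEB1. The 393P_ZEB1 samples lay on both sides of the others. The log2 fold change was -0.35 (SE 0.21, 95% interval -0.84 to 0.14, adjusted p = 0.226 from edgeR). Without 393P_ZEB1 replicate 1, the highest of the 6 in CPM but not in RPKM, it was -0.62 (adjusted p = 0.0247). Snhg1 had -0.32 (adjusted p = 0.305) without 393P_vector replicate 3. Snhg12, on chr4:132308678-132311024 (plus strand), had 10.7, 11.9 and 10.1 CPM in 393P_vector and 10.4, 10.6 and 11.9 CPM in 393P_ZEB1. Its groups covered nearly the same range. The log2 fold change of Snhg12 was 0.01 (SE 0.13, 95% interval -0.30 to 0.32, adjusted p = 0.976), which corresponds to folds between 0.81 and 1.25. Snhg12 had -0.05 (adjusted p = 0.783) without 393P_vector replicate 3.

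Gas5 and Snhg8 need their gene models, because snoRNAs lie inside the exons that were counted. The Gas5 row, chr1:161035166-161038537 (plus strand), has 4 exons and 2550 bases and matches a GENCODE transcript whose first exon retains introns. Of the 9 snoRNAs annotated in Gas5, 6 lie in these exons and 3 in the remaining introns. 1 of the 6 has its own row under the name Mir5117, although GENCODE lists the gene as a snoRNA. The Snhg8 row, chr3:123507552-123508336 (minus strand), is a single exon of 784 bases that holds all of Snora24. Both inner RNAs are printed from GENCODE M21 because reads on them fall in the counted exons of the host rows as well. Capitals mark TGATGA and CTGA, the boxes C and D, in the first, and ACA, 3 bases from the 3′ end as in H/ACA snoRNAs, in the second.
Mir5117 (chr1:161037356-161037439, plus strand): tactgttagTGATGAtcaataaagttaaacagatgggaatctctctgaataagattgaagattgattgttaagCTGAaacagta
Snora24 (chr3:123507937-123508066, minus strand): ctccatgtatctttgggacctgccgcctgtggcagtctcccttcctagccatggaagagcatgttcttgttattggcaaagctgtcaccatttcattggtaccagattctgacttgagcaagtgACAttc

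Gas5 had 5014.9, 4617.2 and 3764.5 CPM in 393P_vector and 6177.7, 3763.1 and 4516.6 CPM in 393P_ZEB1. The groups overlapped, and 393P_ZEB1 replicate 1 was the highest. Gas5 had a log2 fold change of 0.11 (SE 0.20, 95% interval -0.36 to 0.58, adjusted p = 0.704 from edgeR). The Mir5117 count equalled 19.1% to 23.4% of the Gas5 count in each sample. With these reads subtracted, on the assumption that they were counted in both rows, the log2 fold change of Gas5 was 0.08 (SE 0.21, adjusted p = 0.802), and without 393P_vector replicate 3 Gas5 as counted had 0.00 (adjusted p = 0.999). The other snoRNAs in the counted exons have no row to subtract, so the remainder still holds any reads on them. Gas5 supplied nearly all reads of the hosts. The mean log2 ratio of the summed hosts to Malat1 was 0.631 ± 0.0594 (SD, n = 3) in 393P_vector and 1.06 ± 0.216 in 393P_ZEB1 (difference 0.434, two-sided exact permutation p = 0.1, the smallest possible). The difference without 393P_vector replicate 3 was 0.401 (exact permutation p = 0.1), while in the edgeR fit Gas5 had a log2 fold change of 0.00 and Malat1 of -0.43. With Gas5 left out and all samples kept, the mean log2 ratio was -3.68 ± 0.409 (SD) in 393P_vector and -3.66 ± 0.0935 in 393P_ZEB1. That difference was 0.02, and replicates 1, 2 and 3 of 393P_vector stood at -3.94, -3.9 and -3.21.

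Snhg8 had 119.8, 106.2 and 164.0 CPM in 393P_vector and 119.5, 99.8 and 106.1 CPM in 393P_ZEB1. Snhg8 had a log2 fold change of -0.26 (SE 0.17, 95% interval -0.66 to 0.14, adjusted p = 0.265 from edgeR) and -0.06 without 393P_vector replicate 3 (adjusted p = 0.627). The Snora24 count equalled 86.3% to 93.9% of the Snhg8 count. If its reads were counted in both rows, the rest of the Snhg8 row had 10.1, 9.96 and 22.5 CPM in 393P_vector and 7.27, 6.17 and 8.78 CPM in 393P_ZEB1. Here the groups did not overlap. The log2 fold change of the rest was -0.94 (SE 0.34, 95% interval -1.72 to -0.16, adjusted p = 0.0611 from edgeR) with all samples and -0.44 (SE 0.15, adjusted p = 0.0351) without 393P_vector replicate 3, whereas Snora24 had -0.20 (SE 0.16, adjusted p = 0.363) and -0.03 (SE 0.10, adjusted p = 0.837). The subtraction was chosen after the data were seen, and the difference between the host remainder and the snoRNA was not tested.

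**Figure D3:**
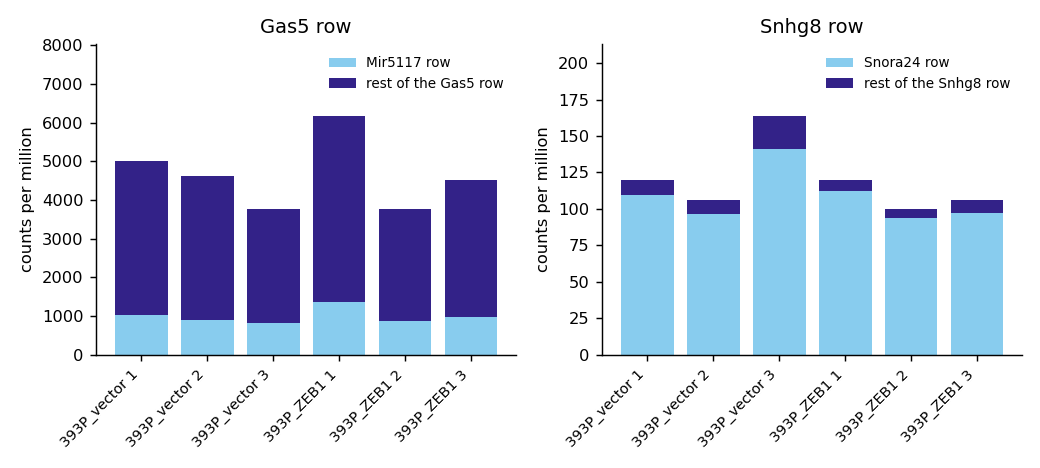
CPM of the Gas5 row (left) and the Snhg8 row (right) in each of the 6 samples, each bar split into the count of the snoRNA row inside its exons (light) and the rest (dark), as if those reads were counted in both rows. The Mir5117 count is 19.1% to 23.4% of Gas5, and the Snora24 count is 86.3% to 93.9% of Snhg8. Any reads on the other snoRNAs in the Gas5 exons, which have no row, stay in the dark part.

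The other 7 rows inside members are intronic snoRNAs, and 6 of them exceeded their host in reads. Snord22 had 36.3 to 266.7 times the reads of Snhg1, Snord87 had 6.52 to 107.8 times those of Snhg6, and Snora16a, Snora44, Snora61 and Snord99 had between 5.86 and 74.9 times those of Snhg12. Snord47 in Gas5 had 4.63% to 9.98% of the reads of its host. None of the 9 inner rows passed the test, against 37.6% of all genes, and their adjusted p ran from 0.119 for Snord99 to 0.914 for Snora44 (edgeR). None of the 9 had an unadjusted p under 0.05 either, against 46.7% of all genes.

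Snord22, the row with the highest mean CPM of all genes tested, fell to 2192.9 CPM in 393P_vector replicate 3, which was 0.174 times the mean of replicates 1 and 2. Snora61 was at 0.0987 times that mean in the same sample, while Snhg12, the host of Snora61, had 10.1 CPM there against 10.7 and 11.9 CPM. Snhg6 and its snoRNA also parted in this sample, since Snord87 was at 0.945 times the mean of the others and Snhg6 at 5.04 times. Outside it, Snord22 had a log2 fold change of -0.22 (adjusted p = 0.291), Snora61 of 0.11 (adjusted p = 0.581) and Snord87 of -0.08 (adjusted p = 0.812).

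**Figure D4:**
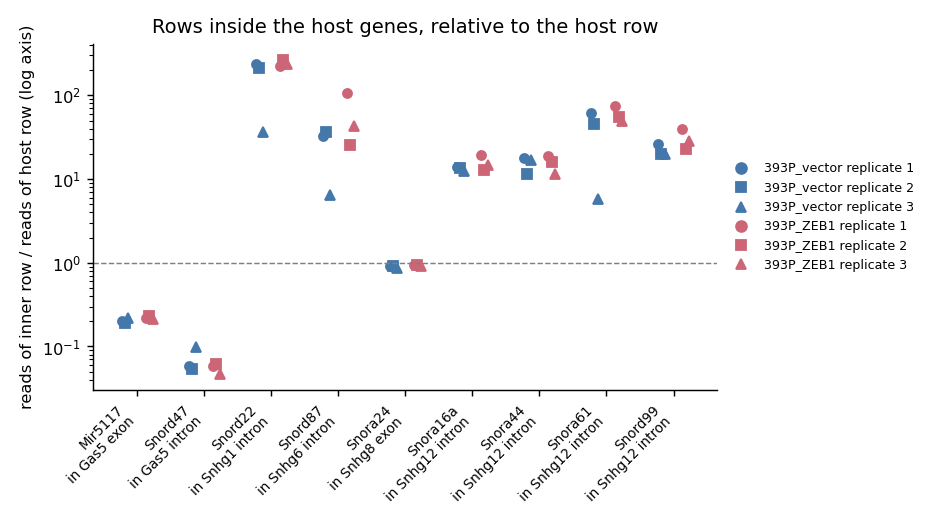
Reads of each row that lies inside a host gene, divided by the reads of the host row in the same sample (log axis), for 393P_vector (blue) and 393P_ZEB1 (red). The dashed line is a ratio of 1. 6 of the 7 intronic rows lie above it in every sample, and 393P_vector replicate 3 (blue triangle) is low for Snord22, Snord87 and Snora61.

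Rmrp, the highest of the 10 per length, is the catalytic RNA that pairs with the proteins of RNase MRP. It is shown whole from GENCODE M21 because its row is this single short RNA.
Rmrp (chr4:43492788-43493058, minus strand): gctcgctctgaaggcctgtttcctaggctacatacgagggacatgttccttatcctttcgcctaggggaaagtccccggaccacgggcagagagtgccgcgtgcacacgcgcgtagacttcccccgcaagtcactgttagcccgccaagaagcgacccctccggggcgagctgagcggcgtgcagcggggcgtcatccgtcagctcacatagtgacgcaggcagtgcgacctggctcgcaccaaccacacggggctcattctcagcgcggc

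Rmrp had 3216.5, 2568.2 and 3985.5 CPM in 393P_vector and 3280.1, 4383.3 and 2998.4 CPM in 393P_ZEB1, with overlapping groups. The log2 fold change was 0.13 (SE 0.20, 95% interval -0.35 to 0.60, adjusted p = 0.663 from edgeR) and 0.30 (SE 0.17, adjusted p = 0.172) without 393P_vector replicate 3. An annotated form of Ccdc107 crosses 160 of its bases on the opposite strand. Of 10 proteins of RNase MRP and RNase P, 1 was lower and none higher (10.0% called, against 37.6% of all genes). The subunit Rpp25 was lower at -1.61 (SE 0.39, adjusted p = 0.0148), from 1.73 ± 0.088 CPM (SD, n = 3) to 0.569 ± 0.31 CPM. Pop1, the largest protein of both enzymes, had 0.27 (SE 0.10, adjusted p = 0.0558) and Rpp30, Pop4 and Rpp14 had -0.09, 0.22 and -0.14. Rpph1, the RNA of RNase P, had 3031.3 to 9375.1 CPM in 393P_vector and 4359.8 to 9289.6 CPM in 393P_ZEB1 (log2 fold change -0.17, SE 0.45, adjusted p = 0.789, and -0.53 without 393P_vector replicate 3, adjusted p = 0.235). Its lowest value was in 393P_vector replicate 3, where Rmrp was at its highest in that group.

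Other noncoding RNAs of the same kinds were called in shares of 37.5% for snoRNA hosts, 27.3% for long noncoding RNAs and 33.3% for short structured RNAs, near or below the 37.6% of all genes. Of 8 other snoRNA hosts tested, 1 was higher and 2 lower. Snhg7 (-0.71, SE 0.19, adjusted p = 0.0221) and Snhg10 (-0.90, SE 0.21, adjusted p = 0.0129) were lower, and Snhg4 was higher at 0.57 (SE 0.15, adjusted p = 0.0218 from edgeR). Snhg4, like Zeb1 (1.26), lies on chromosome 18, where the median log2 fold change of all 396 genes tested was 0.64. This shift of a whole chromosome is a further difference between the lines that cannot be told apart from an effect of ZEB1. Of 11 other long noncoding RNAs, 3 were lower and none higher. They were Kcnq1ot1, which silences imprinted genes (-1.06, SE 0.15, adjusted p = 0.000997), Mir17hg, the host of the miR-17 cluster (-1.06, SE 0.22, adjusted p = 0.00783), and Airn, another imprinting RNA (-1.39, SE 0.33, adjusted p = 0.0136). Of 6 other short structured RNAs, the spliceosomal Rnu12 (-0.97, SE 0.25, adjusted p = 0.0188) and the telomerase RNA Terc (-3.03, SE 0.55, adjusted p = 0.00397) were lower, and Rnu73b and Vaultrc5 had -0.17 and 0.31. Terc in 393P_vector replicate 3 was 3.37 times the mean of the other 2 samples of its group, and without that sample its log2 fold change was -2.18 (SE 0.26, adjusted p = 5.5e-05). The median log2 fold change was -0.33, -0.27 and -0.57 in these 3 lists.

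The proteins that bind and assemble snoRNAs passed the main test about as often as all genes. Of 16 snoRNP proteins, 1 was higher and 5 lower, with a median log2 fold change of -0.35. Among them the C/D box core protein Nop56 was lower (-0.58, SE 0.18, adjusted p = 0.0418) and its partner Nop58 higher (0.39, SE 0.12, adjusted p = 0.035). The assembly factors Nufip1 (-0.69, SE 0.11, adjusted p = 0.0024) and Ruvbl2 (-0.41, SE 0.11, adjusted p = 0.0188) and the chaperone Nolc1 (-0.36, SE 0.12, adjusted p = 0.049) were lower. Without 393P_vector replicate 3, 3 of the 16 were higher and 7 lower, against 53.0% of all genes called in either direction. The share past the threshold in the main test, 37.5%, was near the 37.6% of all genes.

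The shares called were 8.33% of nonsense-mediated decay factors, 20% of mRNAs with a 5′ TOP tract outside the ribosomal proteins and 16% of ribosomal protein genes, against 37.6% of all genes. Of 12 nonsense-mediated decay factors, Upf1, the helicase of the pathway, was lower at -0.78 (SE 0.14, adjusted p = 0.00308 from edgeR) and none was higher. Smg5, Smg1 and Nbas had -0.20, -0.13 and -0.35. Of the 20 5′ TOP mRNAs, 2 were higher and 2 lower. The intermediate filament Vim (0.41, SE 0.12, adjusted p = 0.0256) and the elongation factor Eef1a1 (0.44, SE 0.11, adjusted p = 0.0167) were higher, and the elongation factors Eef2 (-0.47, SE 0.14, adjusted p = 0.0347) and Eef1d (-0.47, SE 0.15, adjusted p = 0.0459) were lower. Of 81 ribosomal protein genes, 3 were higher and 10 lower, with a median log2 fold change of -0.28. This median was 0.01 without 393P_vector replicate 3, with 12 higher and 10 lower, so it rested on that sample.

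Without 393P_vector replicate 3 more genes passed in most of these lists, as over all genes, of which 53.0% then passed. The higher and lower calls were then 4 and 2 of the 15 paraspeckle proteins and 2 and 1 of the 14 genes listed for speckles. They were 3 and 1 of the 10 RNase MRP and RNase P proteins and 1 and 3 of the 12 decay factors. Of the 20 mRNAs with a 5′ TOP tract they were 5 and 4, and of the 11 other long noncoding RNAs 2 and 3. Among the named genes, Sfpq (0.23, adjusted p = 0.0327), Son (0.27, adjusted p = 0.0208), Pop1 (0.23, adjusted p = 0.0242) and Pop4 (0.27, adjusted p = 0.0283) were then higher. Smarca4 (-0.25, adjusted p = 0.0212), Smg5 (-0.43, adjusted p = 0.00141) and Nbas (-0.51, adjusted p = 0.00033) were then lower, and Nop56 no longer passed (-0.45, adjusted p = 0.0564 from edgeR).

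**Figure D5:**
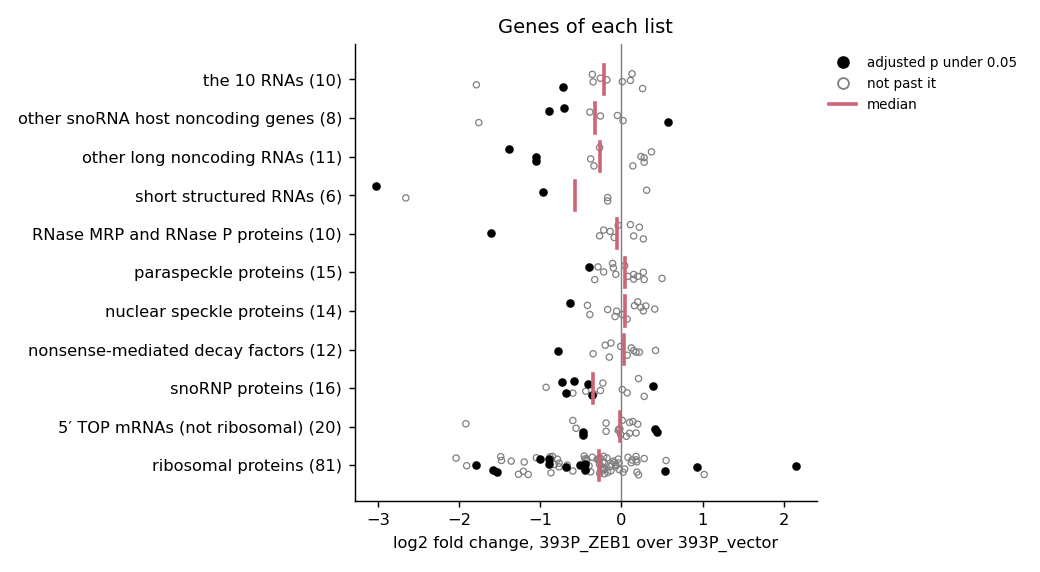
Log2 fold change, 393P_ZEB1 over 393P_vector, of each tested gene in the 10 RNAs and 10 related gene lists (number tested in brackets), with genes past an adjusted p of 0.05 filled and the median as a red bar. The 10 RNAs have 1 filled point, Snhg5, at -0.72, and a median of -0.22.

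The 10 RNAs lie on 5 chromosomes, whose medians over all tested genes were 0.06 for chromosome 1, 0.06 for chromosome 3, 0.03 for chromosome 4, -0.14 for chromosome 9 and -0.03 for chromosome 19. On chromosome 19, Malat1 had -0.36, Snhg1 -0.35 and Neat1 0.26, and on chromosome 4, Rmrp had 0.13, Snhg12 0.01 and Snhg3 -0.18. Differences between these genes were not tested.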

How the data were processed

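RNA of 3 samples of 393P_vector and 3 of 393P_ZEB1 was purified and sequenced with the SOLiD total RNA-seq kit. Per the labels and file headers, the authors deposited, for each sample, unnormalized counts of reads on 24214 RefSeq gene rows and the RPKM of each row, with coordinates that match GRCm38. The aligner, the counting program and the use of strand are not given in the sources used here. The totals implied by the RPKM were 99.1% to 99.32% of the summed counts, which leaves room for reads counted in more than 1 row.

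Counts were tested in R 4.3.3 with edgeR 4.0.16: filterByExpr (minimum count 10), TMM, a robust quasi-likelihood fit on condition alone, and Benjamini-Hochberg adjustment over 13892 genes with a threshold of 0.05 (biological coefficient of variation 0.184). Single values per sample were compared by two-sided exact permutation tests. The tests were checked on simulated data. RPKM served only to compare levels between genes. Exon models came from GENCODE M21 and promoters from RefSeq. Python 3.11.15, pandas 2.3.3 and matplotlib 3.10.9 were used for tables and plots.

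The 10 members and all gene lists were chosen with earlier results of these data known. All members are named. From each other list at most 5 genes are named, those past the threshold with the highest mean CPM, filled from the rest by mean CPM where fewer than 3 passed, and ribosomal proteins are given by counts. 1 gene that this rule names is not reported here. Alternatives were RLE and upper-quartile factors, DESeq2 1.42.0, limma 3.58.1 voom with sample weights, 2 filters, a replicate block, removal of the 10 most counted other genes, leaving out each sample in turn and a threshold of 0.01. Subtraction, for reads counted in both rows, of the inner snoRNA rows from Gas5 and Snhg8 was added after the data were seen.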

Additional observations from a re-analysis of the deposited data

How the results depend on the processing

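Of 144 alternative fold changes of single members, 121 kept both the direction and the side of the threshold. Snhg5 stayed past it in 13 of 14 settings. Malat1 passed with upper-quartile factors (-0.38), with limma voom (-0.49) and in the leave-one-out fits only without 393P_vector replicate 3 (range -0.43 to -0.26). Snhg1 passed with limma voom (-0.47). Leaving out 1 sample gave -0.10 to 0.27 for Gas5, -0.62 to -0.17 for Snhg1, -0.47 to 0.59 for Snhg3, -0.82 to -0.54 for Snhg5, -2.16 to -0.55 for Snhg6, -0.045 to 0.079 for Snhg12, -0.046 to 0.30 for Rmrp, and -0.0745 to 0.0194 percentage points for the share of all counts. The sign turned with limma voom for Gas5 (-0.15), Snhg3 (0.36) and Snhg12 (-0.0033), with upper-quartile factors for Snhg12 (-0.0085), with at least 10 counts in every sample for Snhg12 (-0.0039), and, with the inner rows subtracted and without 393P_vector replicate 3, for Gas5 (-0.043). That last setting took Snhg8 past the threshold (-0.44). The count of lower members was 2 with upper-quartile factors, 3 with limma voom, 0 at an adjusted p of 0.01 and 0 to 2 in the leave-one-out fits. Higher and lower genes numbered 3977 and 4094 with limma voom, 1584 and 1545 at an adjusted p of 0.01, and 1861 to 3700 and 1784 to 3776 when 1 sample was left out. The cause of these changes was not tested. With equal replicate numbers as a block, Snhg3 had 0.0068 and Snhg5 -0.70 (adjusted p = 0.017 from edgeR). The labels do not say whether equal numbers belong together. Deviations of equal numbers correlated at r = 0.279, -0.205 and -0.038, which cannot settle this with 3 samples a group. The block changed no call of a member.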
